A study of Mus musculus with 4 samples.

Results

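Forced expression of Tox2 was compared with a GFP-only control virus in CD4+ T cells grown in a Tfh-like culture, 1 library a side. All 10874 genes with at least 1 CPM (the count scaled to a common library total) in at least 1 of the 2 libraries were compared, of the 11027 genes listed. The pair is 2 of the 4 libraries of the series. The other 2 carry the same viruses in a Th0 culture. They enter the scaling of the counts and otherwise serve only to show where the folds of the pair differ or are close. Both Tfh-like groups began as naive CD4+ T cells of wild type C57BL/6 mice aged 7-8 wk, taken from lymph nodes and spleen. After activation and transduction under neutral conditions, GFP-positive cells were sorted and grown with IL-6 while IFN-gamma, IL-2 and IL-4 were blocked by antibodies. The control cells received an empty retrovirus with GFP, and the Tox2 cells a retrovirus with Tox2 and GFP. The Th0 culture held the same 3 blocking antibodies and no IL-6. The Tox2 virus gives a forced level of the transcript from a vector, so this is a model of excess Tox2. How many mice and cultures stood behind each library is not given in the sources used here.

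T follicular helper (Tfh) cells are CD4+ T cells that enter B-cell follicles and help B cells to mature. The transcription factor Bcl6 is required for their formation, the chemokine receptor CXCR5 brings them to the follicle, and IL-6 and IL-21 act through STAT3 in their early differentiation. IL-2, acting through STAT5, works against this fate. IL-6 also takes part in the formation of Th17 cells, which make IL-17A and IL-17F. Tox2 belongs to the TOX family of HMG-box proteins that bind DNA, and the study asked how it acts in Tfh differentiation.

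The libraries held 13518274 counts with GFP and 13562334 with Tox2. After TMM scaling their effective sizes were 13055905 and 13383753, so the counts below can be read almost directly against each other. Transcripts of the mitochondrial genome made up 1.99% of counts with GFP and 2.16% with Tox2. Where a gene had 0 counts, a level of 0.230 CPM with GFP or 0.224 CPM with Tox2 (3 counts) would still be allowed. Each log2 fold below is Tox2 over GFP in TMM-scaled CPM, with 2 counts added as a prior. The range after it is an exact 95% interval from the counts, which covers counting error only. With 1 library a side there is no spread between replicates, no test and no p-value, and each difference is between these 2 libraries. In this bulk RNA, fewer cells of a type and less RNA per cell cannot be told apart.

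Tox2 lies on the plus strand of chromosome 2, 163203125 to 163324170 (GRCm38, the build of all positions here). The GFP library held 851 counts of it and the Tox2 library 32246, a log2 fold of 5.20 (5.11 to 5.31). This matches the virus named for each library. Its level was 15.4 FPKM with GFP and 571 FPKM with Tox2, and it took 0.238% of all counts with Tox2. The counts do not separate the vector's transcript from the cell's own. Of the other family members listed, Tox had 839 and 949 counts (log2 fold 0.14) and Tox4 2326 and 2414 (0.02).

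A gene is called 2-fold apart here where its log2 fold is at least 1 in size and the interval leaves out 0. In all 513 genes (4.72%) met this rule, 305 (2.8%) higher and 208 (1.91%) lower with Tox2. The interval lay wholly beyond 2-fold for 148 of the higher and 90 of the lower genes. At least 4-fold apart were 71 higher and 31 lower genes, and at least 8-fold apart 21 and 3. By the interval alone, 2765 genes (25.4%) lay above 0 and 2961 (27.2%) below it. Counts of list members below are read against these shares: 2.8% and 1.91% for 2-fold higher and lower, 25.4% and 27.2% for the intervals. The median log2 fold over all genes compared was -0.0025, and the middle 50% of genes lay between -0.20 and 0.21.

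**Figure D1:**
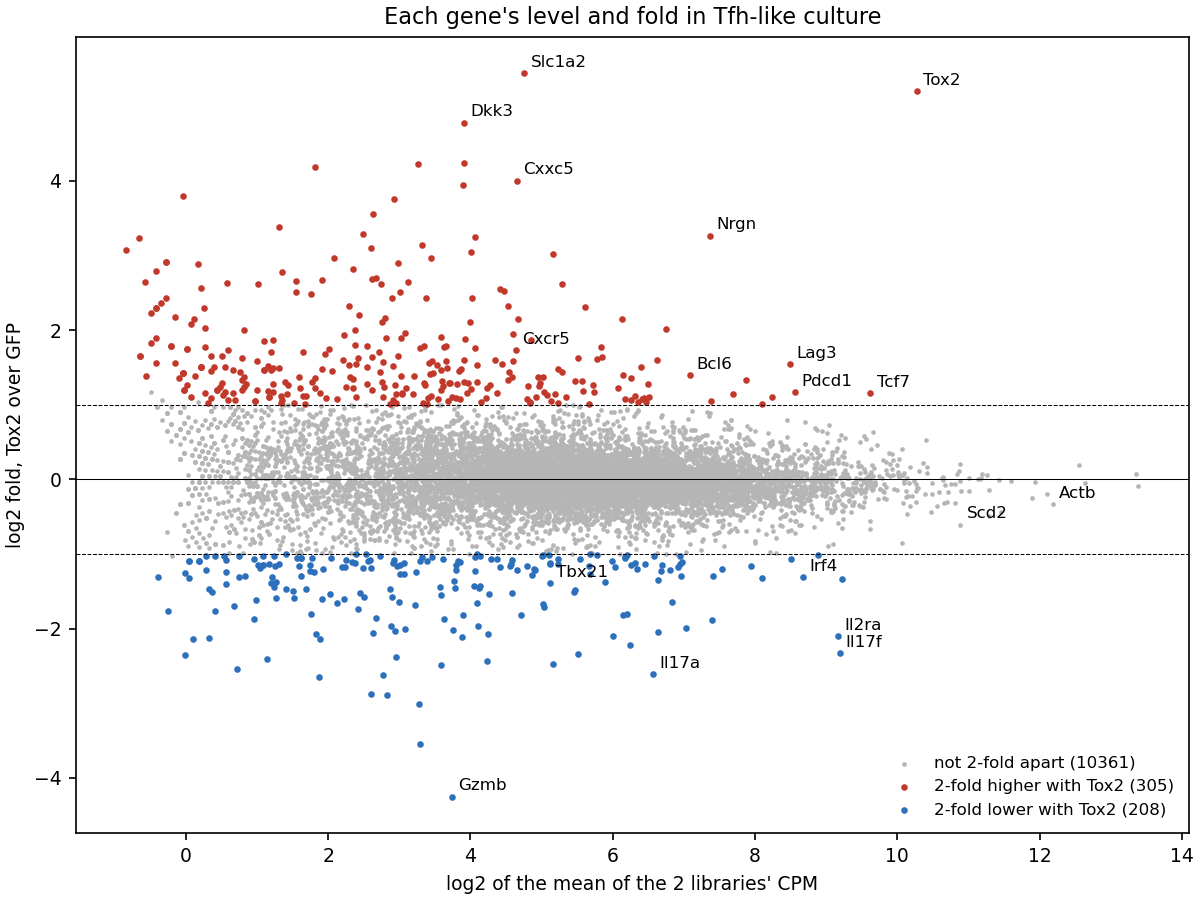
Log2 fold of Tox2 over GFP in the Tfh-like culture (y axis) against the log2 of the mean CPM of the 2 libraries (x axis), 1 point a gene, with red for the 305 genes 2-fold higher, blue for the 208 genes 2-fold lower and dashed lines at 2-fold. Tox2 stands apart at a high level and a log2 fold of 5.20, while Il2ra and Il17f are the most abundant of the labelled genes below the lower line.

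The genes 2-fold apart were of lower level than genes at large. Their median in the higher library was 10.7 CPM for higher and 13.6 CPM for lower genes, against 45.7 CPM over all genes compared. In the library where they were higher, 106 of the 305 higher genes and 58 of the 208 lower genes were under 5 CPM, against 1058 of all 10874. The median width of the interval was 1.66 on the log2 scale for genes of 1 to 5 CPM and 0.174 for genes of 100 CPM or more. The higher genes together took 0.389% of counts with GFP and 1.28% with Tox2. The lower genes took 1.21% with GFP and 0.458% with Tox2. In absolute terms the genes that gained most CPM were Tox2 (2344), the elongation factor Eef1a1 (801) and Tcf7 (600). The genes that lost most were Actb (-1053), Tubb5 (-845) and Lcp1 (-836), which encode beta-actin, a beta-tubulin and the actin-bundling protein L-plastin. Il17f (-780) and Il2ra (-718) were among the 10 largest losses as well.

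Under the rule for named genes, the list of the 25 higher genes with the largest fold was headed by Slc1a2, a glutamate transporter, with 14 counts with GFP and 711 with Tox2 (log2 fold 5.44, 4.87 to 6.51). Dkk3, of the dickkopf family of secreted proteins, had 12 and 391 counts (4.78, 4.17 to 5.96). Kcnmb1, a subunit of a calcium-activated potassium channel, had 18 and 385 (4.24, 3.70 to 5.15). These genes were close to silent in the control library, at under 2 CPM. Cxxc5, a CXXC zinc finger protein, had 37 and 638 counts (4.002, 3.59 to 4.59). Nrgn, neurogranin, a calmodulin-binding protein best known from neurons, had 403 and 3992 (3.27, 3.12 to 3.42) and so was the one gene of the 25 besides Tox2 that was above 100 CPM with Tox2. Apart from Tox2, the remaining genes of the 25 had log2 folds from 2.66 (Oasl2) to 4.23 (Psd2). Asic3 (3 and 91 counts, 4.19 with an interval from 3.29 to 7.19), Grik4 (12 and 138) and Cacna1g (15 and 147) encode ion channels best known from neurons. The receptor tyrosine kinase Kit had 20 and 143 counts and the ETS factor Erg 12 and 89. Dio3, H2-Eb2 and Ghrh had 0 counts with GFP. Dio3, a deiodinase of thyroid hormones, had 26 with Tox2, at least 8.45-fold higher against a floor of 3 counts in the GFP library. H2-Eb2 had 17 and Ghrh 15, at least 5.53-fold and 4.88-fold higher against the same floor.

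The 25 lower genes were headed by Gzmb, granzyme B of cytotoxic granules (chromosome 14, 56258838 to 56262260, minus strand), with 333 and 16 counts (log2 fold -4.25, -5.24 to -3.69). Gap43, a protein of growing axons, followed with 237 and 19 counts (-3.54) and Tmem163, a zinc transporter, with 227 and 27 (-3.02). Unlike the higher list, the lower list held several abundant immune genes. Among these were the cytokine genes Il17a and Il17f, the IL-2 receptor gene Il2ra, the IL-12 receptor gene Il12rb2 and Spp1, which encodes osteopontin. Dagla, a diacylglycerol lipase, had 155 and 24 counts (-2.63), and Dgkk, a diacylglycerol kinase, 998 and 201 (-2.34). The phosphatase gene Ptpn14 had 414 and 77 (-2.43), and the homeobox gene Hlx 132 and 31 (-2.06). Klrc1 (403 and 97 counts) has a near-identical copy, Klrc2, so its value is uncertain.

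**Figure D2:**
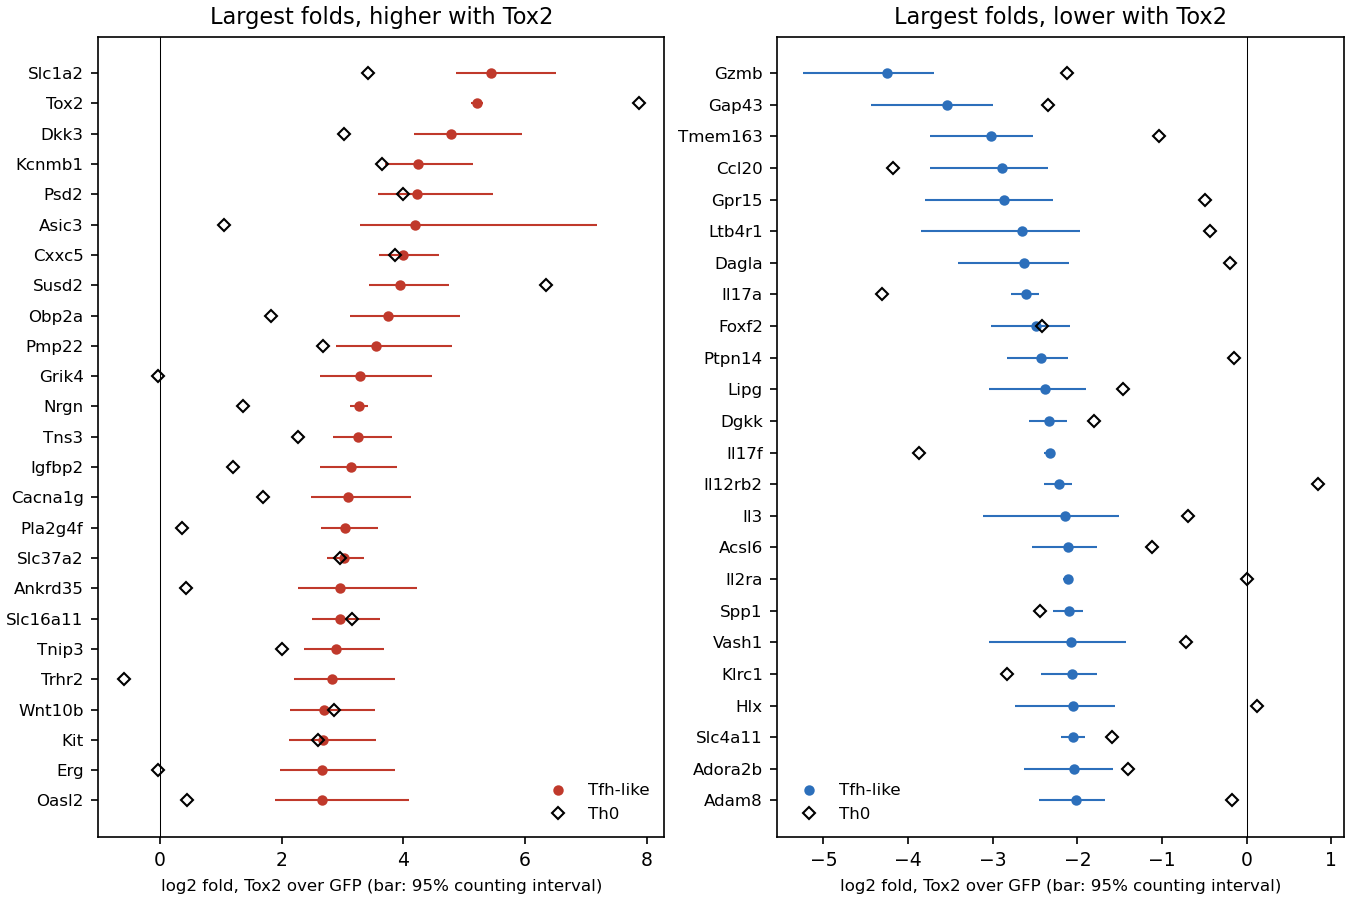
Genes with the largest log2 fold in the Tfh-like culture, 25 higher and 24 of the 25 lower with Tox2 (filled points, with bars for the 95% counting interval) among those with at least 5 CPM in the higher library, with the log2 fold of the same gene in Th0 (open diamonds). Intervals are wide for genes such as Asic3 and narrow for Tox2, Il17f and Il2ra, and the Th0 diamonds of Il2ra, Il12rb2, Grik4, Erg and Trhr2 lie near or across 0.

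Among Tfh genes, those for the transcription factors Bcl6 and TCF-1, the receptor CXCR5 and the receptor PD-1 were higher with Tox2, while the cytokine and costimulatory genes were not. Of 25 members, 6 were 2-fold higher and 2 were 2-fold lower, against 2.8% and 1.91% of all genes. The median was -0.07, with 10 intervals above 0 and 12 below. Bcl6 (chromosome 16, 23965052 to 23988852, minus strand) had 977 counts in the GFP library and 2632 in the Tox2 library (1.39, 1.29 to 1.50). Cxcr5 (chromosome 9, 44511787 to 44561877, minus strand) had 150 and 514 counts (1.73, 1.48 to 2.01). Per length, Cxcr5 remained the lower of the pair of genes even with Tox2, at 9.29 FPKM against 23.7 FPKM for Bcl6. Tcf7, which encodes TCF-1, an early factor of Tfh cells, had 6362 and 14556 (1.16, 1.12 to 1.20). Pdcd1, which encodes PD-1, an inhibitory receptor abundant on Tfh cells, had 3054 and 7037 (1.17, 1.11 to 1.23). Il6st, the shared signalling chain of the IL-6 receptor, had 684 and 1708 counts (1.28, 1.16 to 1.41). Batf, a basic leucine zipper factor of Tfh and Th17 cells, had 2374 and 4882 counts, and its log2 fold of 1.004 (0.93 to 1.08) lay on the threshold.

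Both lower Tfh genes were abundant ones. Irf4, a factor that acts together with BATF downstream of the T-cell receptor, had 7632 counts with GFP and 3146 with Tox2 (-1.31, -1.37 to -1.25). Cd200, a surface glycoprotein, had 3152 and 1316 (-1.29, -1.39 to -1.20). The regulator of G protein signalling Rgs16 had 2065 and 1059 counts and a log2 fold of -0.998, just outside the rule. Other members lay between these ends. Il21, the main Tfh cytokine, had 1015 and 863 counts (-0.27), Icos, a costimulatory receptor, 2881 and 2201 (-0.42), and Il6ra, the binding chain of the IL-6 receptor, 1745 and 1379 (-0.37). Sh2d1a, which encodes the adaptor SAP needed for T-cell help, had 576 and 986 counts (0.74, 0.59 to 0.89). For Ascl2, Slamf6 and Cd40lg the interval spanned 0.

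Of 18 genes that oppose the Tfh fate, 1 was 2-fold lower and 0 were 2-fold higher, and the median was -0.11. The lower one was Il2ra (chromosome 2, 11642807 to 11693193, plus strand), the alpha chain of the IL-2 receptor, with 12209 and 2906 counts (-2.11, -2.17 to -2.05). Its level was 131 FPKM with GFP and 30.6 FPKM with Tox2. Prdm1, which encodes Blimp-1, the repressor of Bcl6, was close to silent in both libraries with 20 and 29 counts, and its interval spanned 0. The other members were closer to 0: Bach2, a repressor of effector genes, had 5322 and 8416 counts (0.63), the lymph node receptor Ccr7 9778 and 7408 (-0.44), and Klf2 843 and 868 (0.01).

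Signalling genes of the IL-2 and STAT5 pathway leaned lower. Of 17 members 3 were 2-fold lower, 0 were 2-fold higher, 14 had an interval below 0 and 3 above, and the median was -0.33. Beside Il2ra and Gzmb, the third was Socs2, a feedback inhibitor of cytokine signalling, with 146 and 49 counts (-1.57). The kinase gene Pim1 had 1195 and 612 counts and lay just outside the rule at -0.999 (-1.14 to -0.86). The other receptor chains were near 0, with 21900 and 21311 counts for Il2rb (-0.08) and 5687 and 5065 for Il2rg (-0.20). Myc had 3435 and 2410 (-0.55) and Cish 2658 and 1960 (-0.47). The list of IL-6 and STAT3 genes showed no such lean, with a median of 0.02 over 18 members, 2 of them 2-fold higher (Il6st and Batf) and 0 lower. Stat3 had 15845 and 17498 counts (0.11), and Socs3, a STAT3 target that damps the IL-6 receptor, 4010 and 7021 (0.77, 0.72 to 0.83).

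Inhibitory receptors leaned higher. Of 15 members 5 were 2-fold higher and 0 were 2-fold lower, against 2.8% and 1.91% of all genes, and the median log2 fold was 0.88. Lag3, a receptor for MHC class II (chromosome 6, 124904361 to 124911705, minus strand), had 2395 and 7170 counts (1.55, 1.48 to 1.61). Cd160 had 77 and 346 counts (2.10, 1.77 to 2.51), Cd101 240 and 587 (1.25, 1.04 to 1.48) and Cd200r1 39 and 96 (1.22, 0.71 to 1.84), and Pdcd1 was the fifth. Tigit (229 and 435 counts, 0.88) and Cd96 (405 and 817, 0.97), a pair of receptors that bind nectin-family ligands, lay just below the threshold. The nuclear receptor genes Nr4a2 (1258 and 2435, 0.92) and Nr4a1 (1946 and 3453, 0.79), which are induced by T-cell receptor signals, were below it too. The members on the other side were Ctla4 (6767 and 5055 counts, -0.46), Btla (-0.67) and the genes of the PD-1 ligands, Cd274 (-0.60) and Pdcd1lg2 (-0.73). Transcripts of PD-1 and of its ligands stood on opposite sides of 0.

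Genes of Th1 and cytotoxic cells leaned lower. Of 22 members 8 were 2-fold lower and 1 was 2-fold higher, against 1.91% and 2.8% of all genes, 15 intervals lay below 0 and 2 above, and the median was -0.65. Il12rb2 (chromosome 6, 67291318 to 67376188, minus strand), the inducible chain of the IL-12 receptor, had 1635 and 359 counts (-2.22, -2.39 to -2.06). Tbx21, which encodes T-bet, the main Th1 factor, had 657 and 256 (-1.39, -1.61 to -1.19). The chemokine genes Ccl3 (254 and 70, -1.87) and Ccl4 (159 and 51, -1.64), the granule gene Nkg7 (854 and 305, -1.51) and Hopx (427 and 206, -1.08) were the others, beside Gzmb and Klrc1. The one gene that was 2-fold higher was Eomes, the T-box factor related to T-bet, with 6 counts with GFP and 48 with Tox2 (2.61, 1.74 to 4.48), which is 0.0887 and 0.696 FPKM. T-bet stayed the more abundant of the 2 T-box transcripts in the Tox2 library, at 6.20 FPKM. Prf1, perforin, had 461 and 406 counts (-0.22), Runx3 5209 and 4732 (-0.17) and Stat4 666 and 658 (-0.05).

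**Figure D3:**
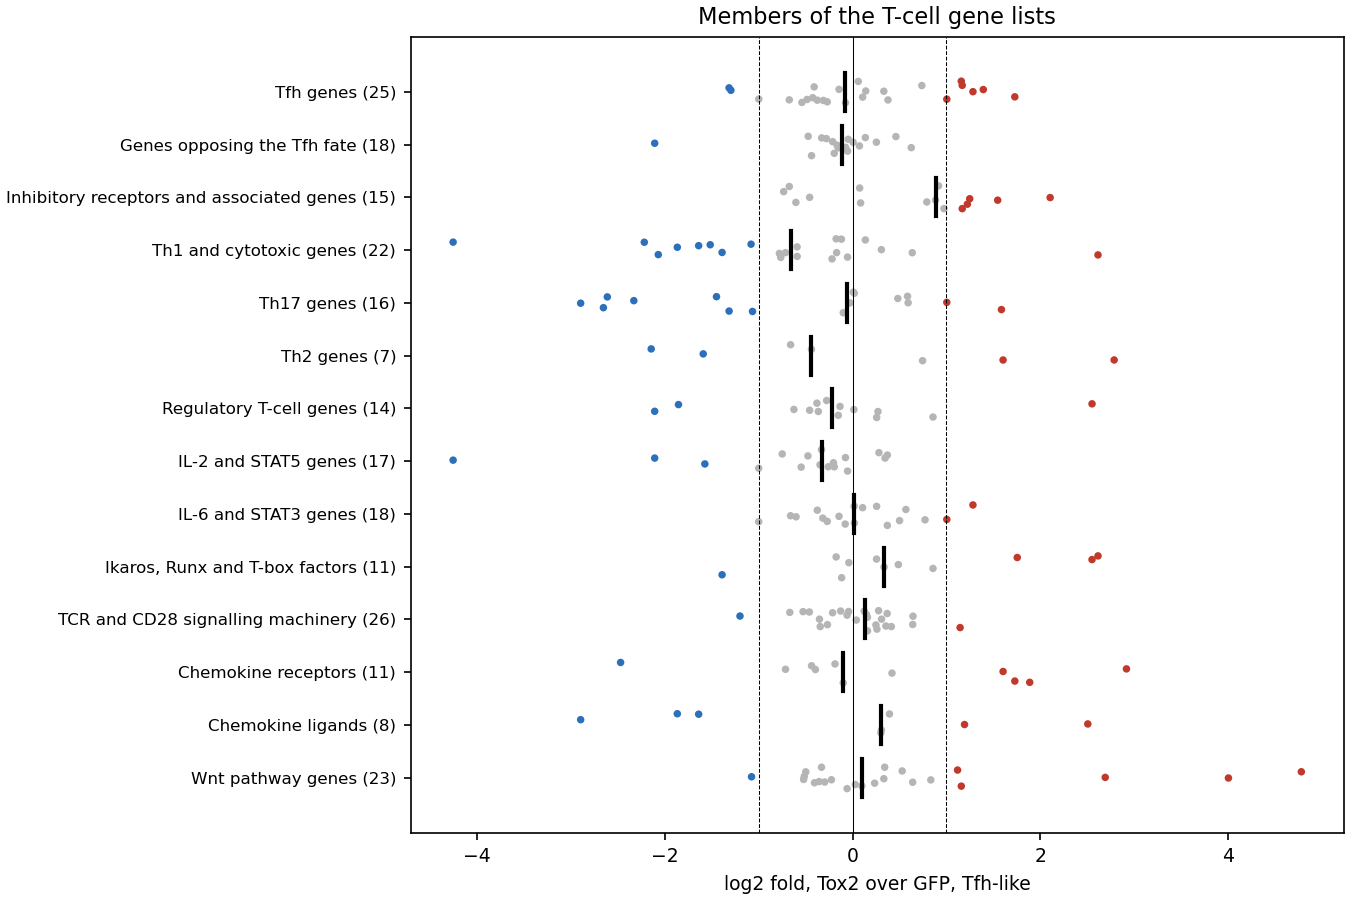
Log2 fold of each compared member (points) of 14 T-cell gene lists in the Tfh-like culture, with the number of members in brackets, the median as a black bar, and red or blue for members 2-fold higher or lower (dashed lines). Medians range from -0.65 for Th1 and cytotoxic genes to 0.88 for inhibitory receptors, and several lists hold members on both sides.

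Among Th17 genes the cytokines were lower with Tox2, while the IL-23 receptor was not. Of 16 members 7 were 2-fold lower and 2 were 2-fold higher, against 1.91% and 2.8% of all genes, with a median of -0.06. Il17f (chromosome 1, 20777146 to 20790617, minus strand) had 12709 counts with GFP and 2593 with Tox2 (-2.33, -2.39 to -2.27), or 386 and 77.2 FPKM. Its neighbour Il17a had 2125 and 355 counts (-2.61, -2.78 to -2.45). Ccl20, the ligand of CCR6, had 165 and 21 (-2.89), the leukotriene receptor gene Ltb4r1 84 and 12 (-2.65) and Csf2, which encodes GM-CSF, 46 and 16 (-1.45). Irf4 and the aryl hydrocarbon receptor gene Ahr (347 and 169, -1.06) completed the 7. In contrast Il23r, the IL-23 receptor, had 657 and 661 counts (-0.03, -0.18 to 0.13). Ccr6 had 1521 and 1456 counts (-0.10) and Rora 1717 and 2459 (0.48). The 2-fold higher members were Il1r1, the IL-1 receptor (157 and 487, 1.59), and Batf.

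The Th2 list had 7 members, 2 of them 2-fold higher and 2 lower, against 2.8% and 1.91% of all genes. Ccr8, a chemokine receptor, had 131 and 412 counts (1.60), and Il13 1 and 19 counts, a log2 fold of 2.79 whose interval ran from 1.56 to 9.59. Il3 (80 and 17, -2.14) and Areg (48 and 15, -1.59) were lower. Gata3, the lineage factor, had 425 and 732 (0.75). Of 14 regulatory T-cell genes 2 were 2-fold lower, Il2ra and Gpr83 (132 and 36, -1.85), and 1 was higher. That was Ikzf2, which encodes Helios, with 80 and 490 counts (2.55, 2.24 to 2.94).

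Helios belongs to the Ikaros family of zinc finger factors, and the list of Ikaros, Runx and T-box factors had 3 of 11 members 2-fold higher and 1 lower, with a median of 0.34. Ikzf3, which encodes Aiolos, had 99 and 347 counts (1.75, 1.45 to 2.11), Ikzf4, which encodes Eos, 514 and 956 (0.86), and Ikzf1, Ikaros itself, 11273 and 14587 (0.34). These 4 intervals lay above 0. That of Ikzf5, another member of the family, spanned 0 (21 and 31 counts, 0.49, -0.32 to 1.40). Helios stayed at a low level per length, 0.423 FPKM with GFP and 2.54 FPKM with Tox2. Among AP-1 and BATF factors Atf3, a stress-induced factor, was 2-fold lower (50 and 8 counts, -2.41), Batf was at the threshold, and the abundant Junb had 26093 and 21488 counts (-0.32).

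Genes of T-cell receptor signalling were close to balanced, with 1 of 26 members 2-fold higher, 1 lower and a median of 0.14. Cd247, the zeta chain of the receptor complex, had 1684 and 3821 counts (1.15, 1.06 to 1.23), while the other CD3 chains had log2 folds of 0.16 (Cd3e), 0.31 (Cd3d) and 0.37 (Cd3g). Themis, an adaptor best known from thymocyte selection, had 3382 and 1510 (-1.20, -1.29 to -1.11). Cd5, an inhibitory coreceptor, had 12537 and 8089 counts (-0.67) and Cd28 10460 and 8402 (-0.35). The ubiquitin ligase gene Cblb, a brake on this pathway, had 5038 and 8054 (0.64). Among ERK feedback genes Dusp6, a phosphatase of ERK, was 2-fold lower with 1416 and 667 counts (-1.12), and 0 of 14 were higher. Of 19 activation genes the 1 that was 2-fold higher was Xcl1, lymphotactin (30 and 184, 2.50), while Egr1 had 2022 and 3351 counts (0.69), Cd69 448 and 444 (-0.05) and Il2 74 and 47 (-0.67).

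Receptors for chemokines differed one by one. Of 11 members 4 were 2-fold higher, against 2.8% of all genes. Beside Cxcr5 and Ccr8, Cxcr6, the receptor for CXCL16, had 83 and 320 counts (1.89, 1.56 to 2.28). Xcr1 had 1 and 21 counts, a log2 fold of 2.92 with an interval from 1.72 to 9.73. Cxcr3, a receptor of Th1 cells, had 1300 and 812 (-0.71, -0.84 to -0.59). The ligand list had 8 members, 2 of them 2-fold higher (Xcl1 and Cx3cl1, the latter with 7 and 19 counts and a log2 fold of 1.19, or 0.75 with a prior count of 10) and 3 lower (Ccl20, Ccl3 and Ccl4). Of 60 other G protein coupled receptors 7 were 2-fold higher and 8 lower, against 2.8% and 1.91% of all genes. Gpr15, which guides T cells to the colon, had 141 and 18 counts (-2.87), Adora2b, an adenosine receptor, 162 and 39 (-2.03), and the prostaglandin receptor gene Ptger4 666 and 326 (-1.06). On the higher side Trhr2 had 15 and 121 (2.82), Gpr35 7 and 61 (2.78) and the lysophosphatidic acid receptor gene Lpar6 70 and 215 (1.56).

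Of 26 listed members of the TNF superfamily 3 were 2-fold higher and 2 lower. The shares over all genes, here and for the lists that follow, were 2.8% and 1.91%. Tnfrsf1a, the main receptor for TNF, had 529 and 1263 counts (1.22), Tnfsf10, the death ligand TRAIL, 752 and 1662 (1.11) and Tnfsf13b, the B-cell survival factor BAFF, 62 and 143 (1.14). Tnfrsf8, which encodes CD30, had 1868 and 818 (-1.23) and Tnfsf14, LIGHT, 1287 and 650 (-1.02, -1.16 to -0.88). Cd70, a ligand of the family outside the list, had 23 and 3 counts (-2.35, -5.35 to -1.25). Of 23 Wnt pathway genes 5 were 2-fold higher and 1 lower. The 5 were Dkk3, Cxxc5, Wnt10b (21 and 150 counts, 2.69), Tcf7 and Fzd6 (25 and 58, 1.12, or 0.93 with a prior count of 10), and Axin2, a common target of the pathway, had 185 and 241 (0.34). Of 36 integrins, selectins and other adhesion genes 3 were 2-fold higher and 2 lower. Itga4, the alpha 4 integrin, had 1737 and 4482 counts (1.33), Itgb8, an integrin that activates TGF-beta, 144 and 435 (1.55), and Itga3 8255 and 4174 (-1.02). Of 56 matrix, protease and serpin genes 2 were 2-fold higher and 9 lower. The lower ones included Timp1, an inhibitor of metalloproteinases, with 2730 and 705 counts (-1.99), and Plaur, the urokinase receptor, with 26 and 8 (-1.52).

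Enzymes of cholesterol synthesis were lower across the pathway in this culture. All 21 members were compared, 4 were 2-fold lower and 0 were 2-fold higher, 20 had an interval below 0 against 27.2% of all genes, 0 had one above, and the median was -0.73. The pathway turns acetyl-CoA into mevalonate and then into sterols, and in most cells its genes are controlled together by the SREBP-2 factor. Early in the pathway Hmgcs1 had 4292 counts with GFP and 2486 with Tox2 (-0.82, -0.90 to -0.75). In the middle of it Mvd had 1855 and 855 counts (-1.15, -1.27 to -1.04) and Fdps 461 and 203 (-1.21, -1.46 to -0.98). At the step that closes the sterol rings Lss had 2217 and 1032 (-1.14, -1.25 to -1.03). Sc5d was the exception to the low intervals, with 1356 and 1398 counts and a log2 fold of 0.01. Insig1, a feedback protein of the pathway, had 2162 and 1362 (-0.70). On a separate list of SREBP regulators, lipid uptake and efflux, 1 of 15 members was 2-fold higher and 0 were lower. There 8 intervals lay below 0 and 2 above, and the median was -0.22. The higher one was Mylip, a ubiquitin ligase gene induced by sterols, with 24 and 100 counts (1.94, 1.37 to 2.73). The sterol efflux genes Abca1 (258 and 292, 0.14) and Abcg1 (448 and 439, -0.06) had intervals that spanned 0. Srebf2, which encodes SREBP-2, had 13134 and 11186 (-0.27).

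Promoter sequence is shown for 4 of these enzymes because their transcripts were lower together. Of these Idi1, which isomerises the isoprene unit, had 1314 and 778 counts (-0.79). Each line gives 150 bases that end just before the annotated start, 5′ to 3′ on the gene's strand, from RefSeq (GRCm38.p6), which are the same coordinates as mm10. Capitals mark CCAAT or, on the other strand, ATTGG, and in Hmgcs1 also a sterol regulatory element, TCACNCCAC. The windows are chr13:119690201-119690350 for Hmgcs1, chr8:122443423-122443572 for Mvd, chr13:8885456-8885605 for Idi1 and chr10:76531455-76531604 for Lss.
Hmgcs1: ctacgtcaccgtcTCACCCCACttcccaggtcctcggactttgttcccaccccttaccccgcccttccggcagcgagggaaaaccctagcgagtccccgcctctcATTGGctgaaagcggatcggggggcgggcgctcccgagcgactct
Mvd: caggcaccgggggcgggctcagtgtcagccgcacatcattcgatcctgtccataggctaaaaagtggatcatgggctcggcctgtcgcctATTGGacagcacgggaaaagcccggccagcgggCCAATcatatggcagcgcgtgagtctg
Idi1: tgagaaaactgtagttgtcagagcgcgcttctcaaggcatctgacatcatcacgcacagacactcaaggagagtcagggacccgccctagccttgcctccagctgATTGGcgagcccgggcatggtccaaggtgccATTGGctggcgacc
Lss: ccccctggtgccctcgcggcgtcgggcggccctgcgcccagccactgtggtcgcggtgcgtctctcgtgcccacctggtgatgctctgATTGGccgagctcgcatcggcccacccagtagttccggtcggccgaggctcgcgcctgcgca

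Over the whole window of 250 bases before to 50 after the start, on both strands, 14 of the 15 cholesterol genes with an entry in the table held CCAAT (93.3%), against 43.2% of 8759 genes compared. Acat2, 1 of the 4 members that were 2-fold lower (1672 and 837 counts, -1.03), was the one without it. Sc5d, at 0.01, held it. The sterol element TCACNCCAC was in 1 of the 15 (6.67%, Hmgcs1) against 1.42%. Among the 2-fold higher genes with an entry CCAAT was in 38.7% and among the 2-fold lower genes in 35.4%. A match describes the letters in this window only.

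On the list of fatty acid synthesis the enzymes leaned lower to a smaller extent. Of its 18 members 0 were 2-fold apart, 12 intervals lay below 0 and 1 above, and the median was -0.23. Fasn, fatty acid synthase, had 8854 and 4898 counts (-0.89, -0.94 to -0.84). The desaturase genes Scd1 (2901 and 1686, -0.82) and Scd2 (29789 and 20045, -0.61) belong to a family of similar copies, so reads may be divided between them. A pair of related genes outside the list, named with their values in view, were 2-fold lower: Scd3 had 308 and 154 counts (-1.03) and the acyl-CoA synthetase gene Acsl6 315 and 73 (-2.11). Glycolysis genes were near the middle of all genes, with 0 of 23 members 2-fold apart and a median of -0.05, and hypoxia genes had 0 of 19 and a median of 0.10, although 12 of the 19 intervals lay above 0.

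**Figure D4:**
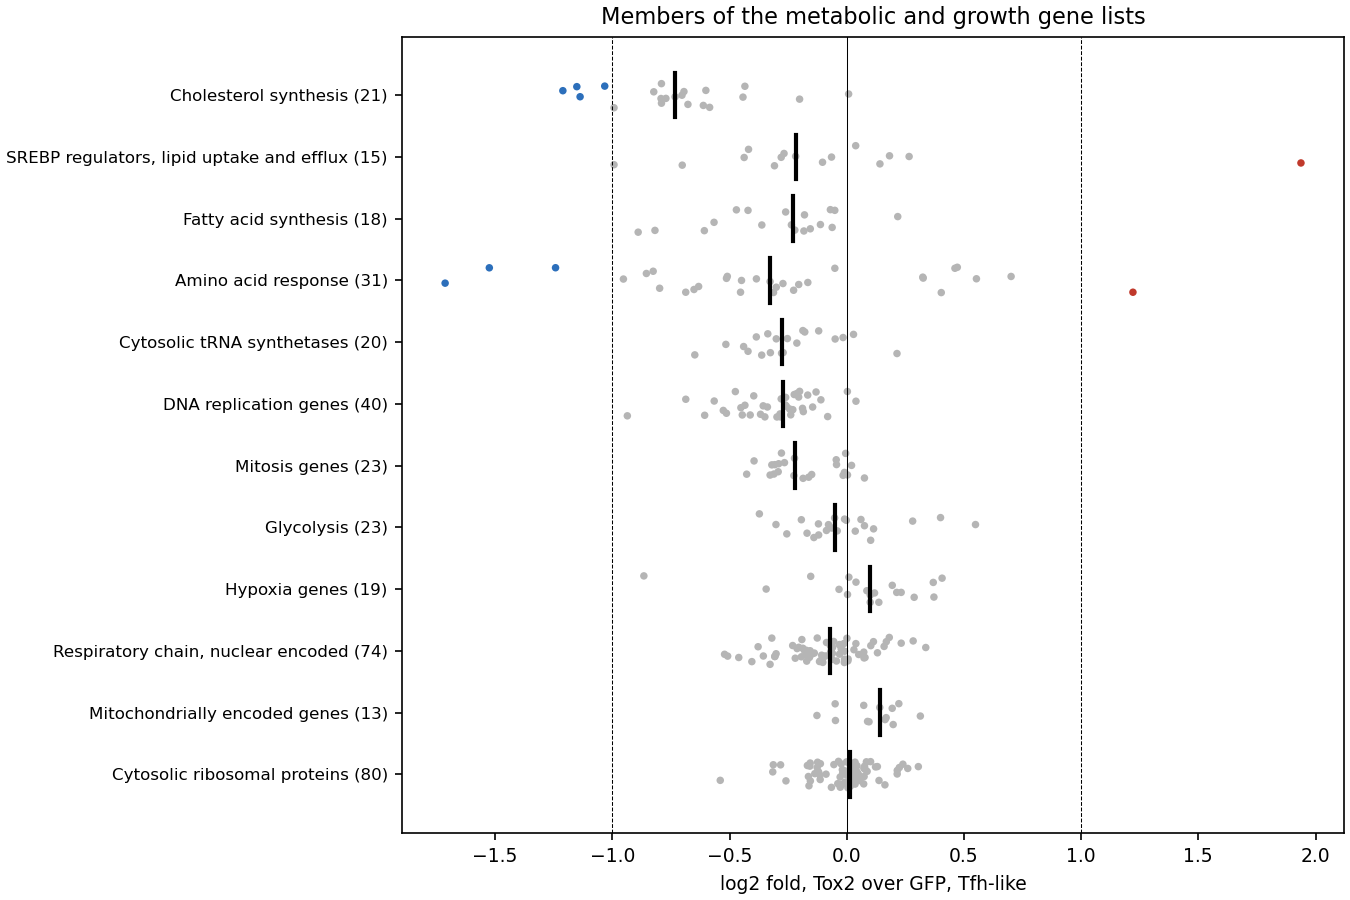
Log2 fold of each compared member (points) of 12 metabolic and growth gene lists in the Tfh-like culture, drawn with the same marks as the T-cell lists and on a narrower scale. The cholesterol synthesis points lie to the left of 0 apart from Sc5d at 0.01, with a median of -0.73, while ribosomal protein genes centre on 0.02.

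Genes of the amino acid response, which the factor ATF4 induces when amino acids are short, also leaned lower. Of 31 members 3 were 2-fold lower and 1 was 2-fold higher, 21 intervals lay below 0 and 6 above, and the median was -0.33. Asns, asparagine synthetase, had 464 and 164 counts (-1.52, -1.80 to -1.28), Cth, which makes cysteine, 657 and 204 (-1.71, -1.96 to -1.49), and Pycr1, which makes proline, 65 and 27 (-1.24, -2.01 to -0.64). The serine enzymes followed with smaller values, among them Psat1 (3790 and 2413, -0.69) and Phgdh (1302 and 849, -0.65). The higher gene was the alanine transaminase gene Gpt2, with 147 and 354 counts (1.22, 0.95 to 1.52). Trib3, a target and inhibitor of ATF4, had 319 and 533 (0.70). Atf4 itself had 2905 and 2175 (-0.45) and Ddit3, the stress factor CHOP, 288 and 285 (-0.05). The aminoacyl-tRNA synthetases of the cytosol, another set under ATF4, had 0 of 20 members 2-fold apart, 15 intervals below 0 and a median of -0.27.

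The core of the amino acid response element, TGATGNAA, is shown in capitals in the promoters of 2 of the 3 lower genes, Asns and Pycr1. The third, Cth, had no promoter entry and was not searched. The windows are the 150 bases before the start as above (chr6:7693210-7693359 for Asns and chr11:120643749-120643898 for Pycr1).
Asns: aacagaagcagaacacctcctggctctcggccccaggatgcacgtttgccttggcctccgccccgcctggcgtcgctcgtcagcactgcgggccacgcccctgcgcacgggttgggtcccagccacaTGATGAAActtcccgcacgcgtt
Pycr1: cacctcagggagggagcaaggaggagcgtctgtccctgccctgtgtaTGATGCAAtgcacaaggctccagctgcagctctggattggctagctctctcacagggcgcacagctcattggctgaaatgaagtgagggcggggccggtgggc

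It was in 8 of the 27 genes of the list with an entry (29.6%), against 2.69% of the genes compared. Those 8 were not of one direction: Asns, Pycr1 and Chac1 had negative log2 folds of -1.52, -1.24 and -0.85 and Slc7a11 -0.33, while Trib3 had 0.70, Pck2 0.40, Vldlr 0.33 and Slc1a4 0.32. Chac1 had only 21 and 11 counts, and its interval (-2.17 to 0.15) spanned 0.

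Most genes of DNA replication were slightly lower, by unequal amounts. Of 40 members 0 were 2-fold apart, yet 33 had an interval below 0 and 0 above, the median was -0.27 and the log2 folds ran from -0.94 to 0.04. Examples were the helicase subunit gene Mcm3 (5686 and 3621 counts, -0.69) and Pold1, a catalytic DNA polymerase subunit (2430 and 1636, -0.61), and Pcna stood at 0.00. Of 23 mitosis genes 14 intervals were below 0 and 0 above, with a median of -0.22. The proliferation marker Mki67 had 6851 and 6976 counts (-0.01). Among cell-cycle inhibitors Cdkn1a, which encodes p21, was 2-fold lower with 6432 and 3150 counts (-1.07), and Cdkn1b, p27, had 3255 and 4557 (0.45). Ribosomal protein genes had a median of 0.02 over 80 members, nuclear genes of the respiratory chain -0.07 over 74, and the 13 genes of the mitochondrial genome 0.14, with 0 members 2-fold apart in each.

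Interferon-stimulated genes showed no common direction, with 3 of 30 members 2-fold higher, 1 lower and a median of 0.02. The higher ones were of low count: Oasl2 had 9 and 69 counts (2.66), Isg15 19 and 51 (1.30) and Ifit1 12 and 34 (1.33, or 0.98 with a prior count of 10). Ifitm3, a membrane restriction factor, had 424 and 193 (-1.16). Of 23 genes of MHC and antigen processing 3 were 2-fold higher and 0 lower, with a median of 0.14, which was 0.14 also with H2-Eb2 at its lower bound. H2-Oa (58 and 159, 1.39) and H2-Ob (29 and 109, 1.81) encode H2-O, a class II chaperone, and the invariant chain gene Cd74 had 405 and 250 (-0.73). Of 52 chromatin genes 1 was 2-fold higher, Hdac9 (81 and 253, 1.58), and 1 was lower. That was Chd7, a chromatin remodeller (chromosome 4, 8690406 to 8867659, plus strand), with 3451 and 956 counts (-1.89, -1.99 to -1.78). H2, Gbp, Ifit and Oas genes have close copies, so their counts are uncertain.

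The counts of further lists stand beside 2.8% of all genes 2-fold higher and 1.91% lower. Of 198 solute carriers 7 were 2-fold higher and 4 lower, with Slc1a2, Slc37a2 and Slc16a11 at one end and the membrane transporter gene Slc4a11 (2097 and 519 counts, -2.05) at the other. Of 61 ion channel genes 4 were higher and 1 lower. Of 22 naive and memory genes 1 was 2-fold higher (Tcf7) and 1 lower, Igfbp4, with 11195 and 4532 counts (-1.34). Of 17 BCL2 family genes 1 was 2-fold higher and 0 were lower, with a median of -0.12. The higher one was the death gene Pmaip1, which encodes Noxa (338 and 743, 1.10). Bcl2l1, which encodes the survival protein Bcl-xL, had 2287 and 1279 (-0.87). Other members differed from these: the death genes Bax (-0.58), Bcl2l11 (-0.39) and Bak1 (-0.34) were lower. The survival gene Bcl2 was higher (0.35) and Mcl1 was near 0 (0.04). Of 25 TGF-beta pathway genes 2 were higher and 0 lower, and of 14 NF-kB genes 0 were 2-fold apart.

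The libraries carried the transcripts of CD4+ T cells. Of 11 identity genes, 0 were 2-fold lower and 1 was 2-fold higher (Cd247), and Cd4 had 14423 and 21364 counts (0.53). Their summed level was 6491 CPM with GFP and 6743 CPM with Tox2. Markers of other cells were few: Cd8b1 had 138 and 206 counts and Ebf1, the only B-cell marker compared, 380 and 385. Of 16 myeloid and dendritic markers 5 were listed, with a summed level of 103 CPM with GFP and 166 CPM with Tox2, a ratio of 1.61. Most of that was Cst3, cystatin C, with 1238 and 2007 counts, which many cells make. Cd14 had 11 and 14 counts, Itgam 6 and 19, Cd68 91 and 159 and Xcr1 1 and 21. The part of these cells in the higher values of H2-Oa, H2-Ob, H2-Eb2 and Xcr1 was not tested. Of 10 B-cell markers 2 were listed, of 6 erythroid markers 1 and of 10 NK and gamma-delta T-cell markers 0, and the other markers of these lists were not analysed here.

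The Th0 pair shares no library with the Tfh-like pair, although transduction and sorting came before the cultures were divided and may be shared. Of 10828 genes compared there, 348 (3.21%) were 2-fold higher and 167 (1.54%) lower with Tox2. Higher in both cultures were 131 genes, which is 43.0% of the Tfh-like list and 37.6% of the Th0 list. Lower in both were 60 genes, 28.8% and 35.9%. Of the genes 2-fold apart in Tfh-like, 170 higher and 143 lower ones were not 2-fold apart in Th0, and 9 were 2-fold apart in the opposite direction. The median Th0 log2 fold of all 305 higher genes was 0.90 and of all 208 lower genes -0.60. Missing the rule in Th0 thus does not make a fold particular to the Tfh-like culture. The difference of a fold between the cultures leaves no spread to test it against and is given with a counting interval only.

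Il2ra, the IL-2 receptor gene, differed between the cultures. It had 12209 and 2906 counts in Tfh-like and 5402 and 5591 in Th0, so that the log2 fold was -2.11 in one and 0.00 in the other, a difference of -2.11 (-2.19 to -2.03). Chd7 had 851 and 839 counts in Th0 (-0.07), a difference of -1.82 (-1.99 to -1.65), and Themis 952 and 1020 (0.05), a difference of -1.25 (-1.40 to -1.10). For each of these the GFP library of the Tfh-like culture was the highest of the 4. Il12rb2 and Tbx21 were barely read in Th0, with 11 and 22 counts and 10 and 11 counts, so their folds there have wide intervals. Batf had 551 and 587 counts in Th0 (0.04), a difference of 0.96 (0.78 to 1.14), and Pdcd1 6417 and 9798 (0.56), a difference of 0.61 (0.53 to 0.68). Grik4 had 7 and 7 counts in Th0 and Erg 5 and 5.

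The cholesterol list had a median of 0.00 in Th0 against -0.73 here. Mvd had 989 and 975 counts in Th0 (-0.07), so its difference was -1.08 (-1.26 to -0.91). Hmgcs1 (0.01) and Lss (-0.07) were near 0 in Th0 as well. Some members were lower in Th0 too, among them Idi1 (-0.45), Acat2 (-0.39) and Fdps (-0.35), each with an interval below 0. Scd1 had 727 and 1408 (0.90) and Scd2 13201 and 20749 (0.60) in Th0, on the other side of 0. Folds that were close in both cultures included those of Bcl6 (difference -0.11, -0.28 to 0.06), Tcf7 (0.04, -0.02 to 0.10), Lag3 (0.08, -0.02 to 0.18), Cxxc5 (0.13, -0.43 to 0.70) and Asns (-0.29, -0.66 to 0.07).

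**Figure D5:**
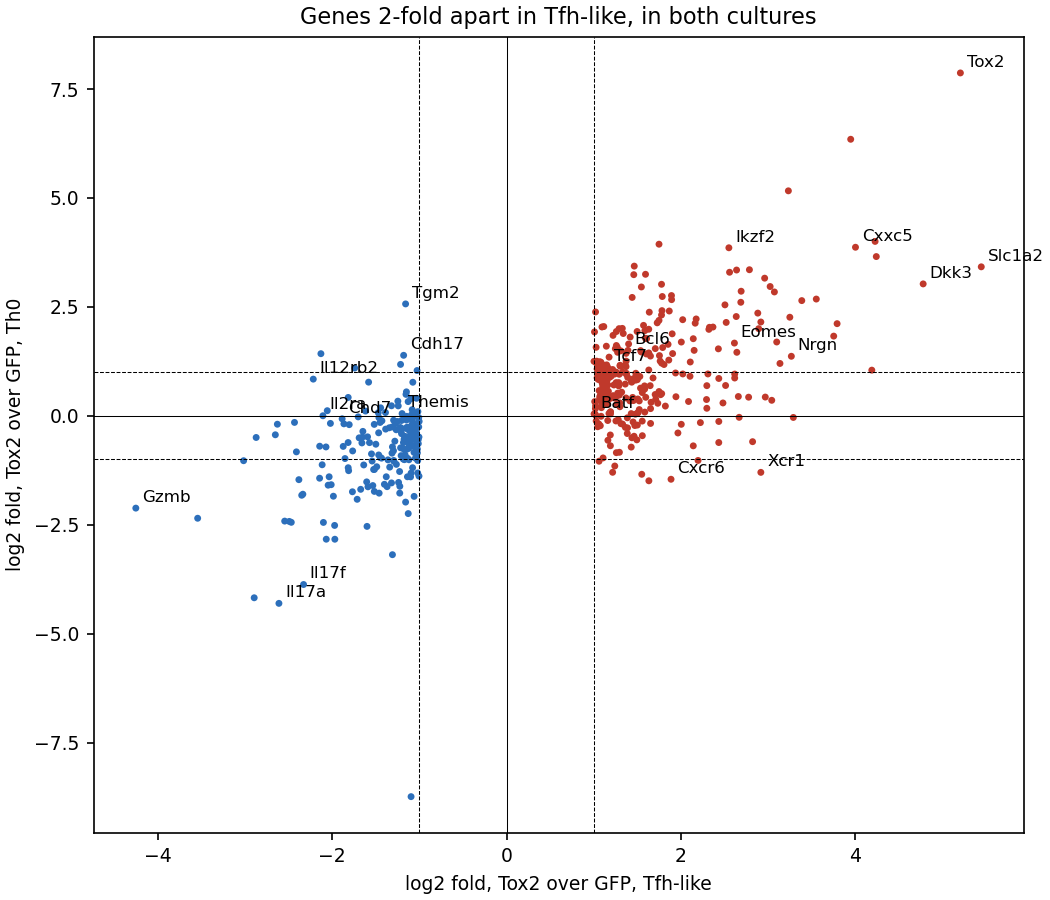
Log2 fold of Tox2 over GFP in Tfh-like (x axis) and in Th0 (y axis) for the 513 genes 2-fold apart in Tfh-like, with red for higher and blue for lower and dashed lines at 2-fold. The empty band in the middle follows from the choice of genes, Il2ra, Chd7, Themis and Batf lie near 0 in Th0, and Tgm2 and Cxcr6 lie beyond 2-fold on opposite sides.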

How the data were processed

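RNA-seq was measured in 4 libraries, 1 for each virus and culture, and the 2 Tfh-like libraries were compared. Total RNA was extracted with Trizol and sequenced by BGI, per the labels' protocols. The deposited files give whole-number read counts per gene, unscaled, per the file headers. They also give FPKM, computed by the authors for the same genes, per the file headers, which was used for levels per length and to read the authors' library scaling. Per the submitters' processing notes, Trim Galore 0.4.4, Bowtie2, featureCounts, Subread, edgeR, MACS2 and mm10 were used, with no role or order. The sources used here do not give the annotation or the strand setting, so overlapping, antisense and near-identical genes may share reads.

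Counts were scaled by TMM factors from all 4 libraries (edgeR 4.0.16, R 4.3.3), 0.966 for Tfh-like with GFP and 0.987 with Tox2. Log2 folds used a prior count of 2, and intervals are exact conditional binomial ones (scipy 1.17.1, Python 3.11.15). They cover counting error only: the reads carry no molecular identifiers, so they are not independent molecules. Differences between cultures carry delta-method counting intervals. The procedure was tested on simulated data. Alternatives were other scalings (DESeq2 1.42.0 size factors among them), prior counts, filters and a correction for gene length.

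The comparison, the 56 gene lists and the motifs were chosen with earlier results of these data known, and some of these lists overlap. Named genes are Tox2, the 25 largest folds in each direction at 5 CPM or more, the 10 largest gains and losses of CPM, genes with 0 counts in 1 library, and of each list its key genes and up to 8 members with the largest fold. The rule takes no predicted gene or receptor segment, and a few genes it would name are left out of the text and figures. Genes named outside it were picked with their values in view. Gene positions are from GENCODE M21 and promoters from RefSeq (GRCm38.p6). The files held 0 columns of other samples.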

Additional observations from a re-analysis of the deposited data

Results flagged for a closer look

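Of the 513 genes 2-fold apart in Tfh-like, 9 were 2-fold apart in the opposite direction in Th0; with 1 library in each group the difference was not tested. Lower in Tfh-like and higher in Th0 were 5 of them. Tgm2, transglutaminase 2, had 4434 and 2036 counts with GFP and Tox2 in Tfh-like (log2 fold -1.16) and 30 and 194 in Th0. Krt83, a hair keratin gene, had 28 and 5 (-2.13) and 29 and 84. Il33, an alarmin cytokine, had 109 and 32 (-1.74) and 8 and 20. Scd3, a desaturase with close copies, had 308 and 154 (-1.03) and 95 and 204, and Enthd1 23 and 9 (-1.22) and 10 and 26. Higher in Tfh-like and lower in Th0 were the other 4. Cxcr6 had 83 and 320 (1.89) and 160 and 59. Cnksr3 had 34 and 106 (1.55) and 106 and 42, Arhgap36 27 and 67 (1.22) and 48 and 19, and C1s1, a complement protease, 13 and 30 (1.06) and 22 and 10. Most of these counts are low, while Tgm2, Scd3 and Cxcr6 have at least 150 counts in 1 library.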

How the results depend on the processing

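With 1 library a side no library could be left out, and the intervals cover counting error only. Under the 10 alternatives the 2-fold higher genes numbered 199 to 321 and the lower ones 150 to 225, against 305 and 208. The 199 higher genes came with a minimum of 5 CPM, which tests fewer genes (9816). That minimum also turned the median of the chemokine ligand list from 0.30 to -1.64, with fewer members left. The shift of the median of all genes was at most 0.0309, and the higher share of the 2-fold genes lay between 57.0% and 62.6%. Of 138 named genes that were 2-fold apart, 135 were so with the total count as scaling (Itga3, Slamf7 and Tnfsf14 were not), 137 with DESeq2 size factors (Batf, 0.98), 129 with a prior count of 10 (Cx3cl1, Fzd6, Ifit1, Itgam, Kcnf1, Slamf7, Slc25a29, Tle1 and Trpm6 were not) and 135 with the length trend removed (Acat2, Tnfsf14 and Trpm6 were not). Longer genes had slightly higher folds, with medians from -0.05 in the shortest to 0.06 in the longest of 4 equal groups. No paired analysis was possible because each group has 1 library and the labels give no replicate numbers.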

Other observations

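Some neighbouring genes were 2-fold apart in the same direction. Among 7254 pairs of adjacent genes that do not overlap and lie within 100000 bases, 20 were higher together, 19 lower together and 3 in opposite directions. Of 364 neighbours of 2-fold higher genes 40 (10.99%) were themselves 2-fold higher, against 2.8% of all genes compared, and of 276 neighbours of 2-fold lower genes 38 (13.8%) were 2-fold lower, against 1.91%. The 19 lower pairs included Il17a and Il17f, 42649 bases apart on chromosome 1, Ccl3 and Ccl4, 13228 bases apart on chromosome 11, Csf2, Il3 and Acsl6 in a row on chromosome 11, Cd70 (23 and 3 counts) and Tnfsf14 on chromosome 17, Tbx21 with its neighbour Tbkbp1 (373 and 130 counts), and pairs of other kinds such as Foxq1 (70 and 19 counts) with Foxf2 and Avpi1 (1864 and 751 counts) with Marveld1 (2042 and 898 counts). Higher together were Cxcr6 and Xcr1 on chromosome 9, Il1r2 (238 and 601 counts) and Il1r1 on chromosome 1, and Jdp2 (404 and 994 counts) and Batf, 46790 bases apart on chromosome 12. Reads shared between near-identical copies can add to such pairs, as in Klrc2 and Klrc1, Ceacam1 and Ceacam2, or Acat3 and Acat2. These shares are descriptions, and pairs share genes.

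At the threshold the rule divides genes of like values. Just inside were Trp53i11 (441 and 908 counts, 1.003) and Obsl1 (299 and 152, -1.002), and just outside Klhl3 (104 and 215, 0.998) and Upp1 (749 and 383, -0.9996).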
